A study of Mus musculus with 5 samples.

Results

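The genes that make cholesterol, sense it, release it from lysosomes, store it as esters and export it were followed in sphere cultures of the newborn mouse adrenal. The list held 33 genes, chosen by name and role with earlier results of these data known. All 33 were among the 23903 genes of the expression table, and each gene was read from its most abundant transcript. Of the 33 genes, 19 encode enzymes of the synthesis pathway, 5 encode regulators of that pathway, 4 act in lysosomal release and cytosolic transport, 2 in ester storage and mobilization, and 3 in efflux.

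Adrenal cells were separated by immunopanning with an antibody against L1CAM, a cell adhesion molecule that chromaffin cells carry on their surface, and were then grown as spheres. The 2 L1CAM-positive libraries came from cells labelled chromaffin cell, and the 3 L1CAM-negative libraries from cells labelled non-adrenergic. The libraries carry the numbers 25, 31 and 28, whose meaning is not given in the sources used here. Number 25 of either fraction was from P0 and P2 pups pooled in equal parts and cultured for 8 days, and number 31 from the same kind of pool cultured for 5 days. Number 28 was L1CAM-negative only, from P5 pups cultured for 8 days, and is called the P5 library. It is the only library of its age, so that age, preparation and library cannot be told apart, and its values are described with no test. No treatment beyond sphere culture is given, and the study describes a serum-free medium with EGF and FGF. The labels give the strain as C57/bl6, whereas the methods of the study describe OF-1 mice. Levels are quantile-normalized log2(FPKM + 2), where FPKM counts fragments by transcript length and by the reads of the library, so that a level of 1 is 0 FPKM and levels of different genes are per length. The read depth of the libraries is unknown, and nothing in the sources says whether numbers 25 and 31 of a fraction were independent preparations (the P5 library came from other pups). A p-value here therefore reflects only how far these 5 libraries scatter, a scatter that could be technical.

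The fraction labels were checked against marker genes. The summed level of 11 chromaffin cell markers was 9398 and 7538 FPKM in the L1CAM-positive libraries, 137 FPKM in the P5 library and 562 and 591 FPKM in the P0/P2 L1CAM-negative libraries. The summed level of 12 adrenocortical markers was 2045 and 2240 FPKM in the L1CAM-positive libraries, 9633 FPKM in the P5 library and 13836 and 9853 FPKM in the P0/P2 L1CAM-negative libraries. The L1CAM-positive spheres were thus rich in chromaffin markers and still held cortical transcripts, and no marker was at 0 FPKM in any library. In such bulk libraries, fewer cells of a type and less RNA per cell cannot be told apart.

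Cholesterol is built from acetyl-CoA through mevalonate, the isoprenoid diphosphates, squalene and lanosterol. The genes of this route are controlled together by SREBP2, a transcription factor held in the endoplasmic reticulum by SCAP and the INSIG proteins while sterol is plentiful, and cut free when sterol falls. When sterol is in excess, liver X receptors raise the exporters ABCA1 and ABCG1, and SOAT1 turns free cholesterol into esters for lipid droplets. The adrenal cortex stores such esters in bulk and draws on them for steroid hormones, whereas chromaffin cells make catecholamines and no steroids.

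Promoter sequences of 6 members are shown as examples, picked with their values in view. *Hmgcs1*, *Lss*, *Cyp51*, *Msmo1* and *Hsd17b7* encode synthesis enzymes that stood highest in the P5 library, as 18 of the 19 did. *Soat1* encodes the storage enzyme that was lower there than in the P0/P2 L1CAM-negative libraries. *Hmgcs1* and *Msmo1* exceeded the mean of those libraries by 1.09 and 1.02 on the log2 scale. Other enzymes, not shown, differed more, such as *Tm7sf2* (1.67). Each sequence is the 250 bases before a start site in RefSeq, build GRCm38.p6, 5′ to 3′ on the strand of the gene. For *Lss* and *Hsd17b7* that start site lay inside the gene span, which begins at 76531565 and 169969242. Their windows therefore reach into the gene. Capitals mark matches to TCACNCCA, a core of the sterol regulatory element that SREBPs bind, and to CCAAT, the box bound by NF-Y, each searched on both strands (TGGNGTGA and ATTGG on the other strand). No base lay in matches to both motifs. *Hmgcs1* is at chr13:119690101-119690350 on the plus strand, *Lss* at chr10:76531355-76531604 on the plus strand, *Cyp51* at chr5:4104698-4104947 on the minus strand, *Msmo1* at chr8:64733579-64733828 on the minus strand, *Hsd17b7* at chr1:169969206-169969455 on the minus strand and *Soat1* at chr1:156474329-156474578 on the minus strand.
Hmgcs1: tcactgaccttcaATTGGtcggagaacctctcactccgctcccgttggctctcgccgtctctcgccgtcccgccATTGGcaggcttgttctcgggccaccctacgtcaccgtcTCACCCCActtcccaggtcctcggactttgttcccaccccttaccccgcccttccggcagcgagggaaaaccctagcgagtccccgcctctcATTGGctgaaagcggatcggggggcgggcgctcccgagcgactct
Lss: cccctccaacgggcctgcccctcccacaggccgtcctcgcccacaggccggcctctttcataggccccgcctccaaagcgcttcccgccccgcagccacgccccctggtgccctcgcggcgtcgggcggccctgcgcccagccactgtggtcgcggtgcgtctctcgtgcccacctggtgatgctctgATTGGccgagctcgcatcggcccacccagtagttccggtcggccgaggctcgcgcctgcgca
Cyp51: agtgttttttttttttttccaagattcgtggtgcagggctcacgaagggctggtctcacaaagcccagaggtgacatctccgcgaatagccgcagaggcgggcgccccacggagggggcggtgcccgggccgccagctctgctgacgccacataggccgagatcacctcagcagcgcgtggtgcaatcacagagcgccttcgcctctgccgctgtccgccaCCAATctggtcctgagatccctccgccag
Msmo1: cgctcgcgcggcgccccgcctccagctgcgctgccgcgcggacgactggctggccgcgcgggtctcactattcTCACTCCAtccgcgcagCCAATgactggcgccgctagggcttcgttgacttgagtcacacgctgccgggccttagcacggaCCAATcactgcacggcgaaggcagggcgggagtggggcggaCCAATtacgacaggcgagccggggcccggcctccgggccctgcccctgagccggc
Hsd17b7: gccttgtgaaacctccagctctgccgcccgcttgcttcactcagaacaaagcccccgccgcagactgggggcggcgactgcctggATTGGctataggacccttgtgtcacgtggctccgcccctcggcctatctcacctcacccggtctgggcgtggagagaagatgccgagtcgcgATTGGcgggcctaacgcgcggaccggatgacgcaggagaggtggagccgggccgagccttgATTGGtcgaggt
Soat1: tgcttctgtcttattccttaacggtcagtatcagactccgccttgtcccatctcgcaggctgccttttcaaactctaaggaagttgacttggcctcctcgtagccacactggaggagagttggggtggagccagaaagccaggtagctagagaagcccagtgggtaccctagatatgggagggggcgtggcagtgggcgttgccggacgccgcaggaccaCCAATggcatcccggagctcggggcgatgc

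The CCAAT letters were in a window of 22 of the 27 members with a promoter in the reference table (81.5%). A gene was counted if any of its windows held a match. The like share was 40.4% of the 10723 genes with a window and 1 FPKM or more in at least 2 libraries. Counted by window, where a gene can have more than 1, it was 33.8% of all 32851 promoter windows. Of the 17 members that were at least 2-fold higher in the P5 library (below), 15 had a window and 14 of these held CCAAT. Among the other members it was in 8 of 12. The sterol regulatory element core was rarer. It was in the windows of *Hmgcs1*, *Msmo1*, *Srebf2* and *Apoe*, 4 of 27 members (14.8%). The shares were 3.97% of the same 10723 genes and 3.67% of all windows. Of the 15 members higher in P5 that had a window, 2 held it, *Hmgcs1* and *Msmo1*, which are printed above. A match is a stretch of letters and not a measured binding site.

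The clearest pattern among the 33 genes was in the P5 library, where nearly the whole synthesis pathway stood above every other library. The summed level of the 19 synthesis enzymes was 825 and 863 FPKM in the L1CAM-positive libraries, 2460 FPKM in the P5 library and 1034 and 972 FPKM in the P0/P2 L1CAM-negative libraries. The P5 library was the highest of the 5 libraries for 18 of the 19 enzymes, all but *Ggps1*. Within each kind of library the spread was small, since the synthesis enzymes differed by at most 0.25 (log2) between the L1CAM-positive libraries and by at most 0.30 between the P0/P2 L1CAM-negative libraries.

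Set against the mean of the P0/P2 L1CAM-negative libraries, 17 of the 33 members were at least 2-fold higher in the P5 library, where 1.77% of all genes were, and 2.61% of the 14091 genes at 1 FPKM or more in at least 2 libraries. The 2-fold limit was chosen after the values were seen. *Msmo1* was the lowest member above it, with a difference of 1.02 on the log2 scale, and *Fdft1* the highest below it, with 0.99. The 17 members were all 5 of the mevalonate pathway, 1 of 3 of the isoprenoid branch, 10 of 11 of the steps from squalene to cholesterol and 1 of 5 regulators. P5 was above both P0/P2 L1CAM-negative libraries for 27 members, against 29.1% of all genes and 35.8% of those at 1 FPKM or more, and was the highest of all 5 libraries for 24 members, against 20.5% and 24.2% in the same order. The median difference was 1.02 for the 33 members, 1.33 for the 19 enzymes and 0.00 for all genes. Only *Apoe* was at least 2-fold lower, where 1.65% of all genes and 2.47% of those at 1 FPKM or more were.

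**Figure D1:**
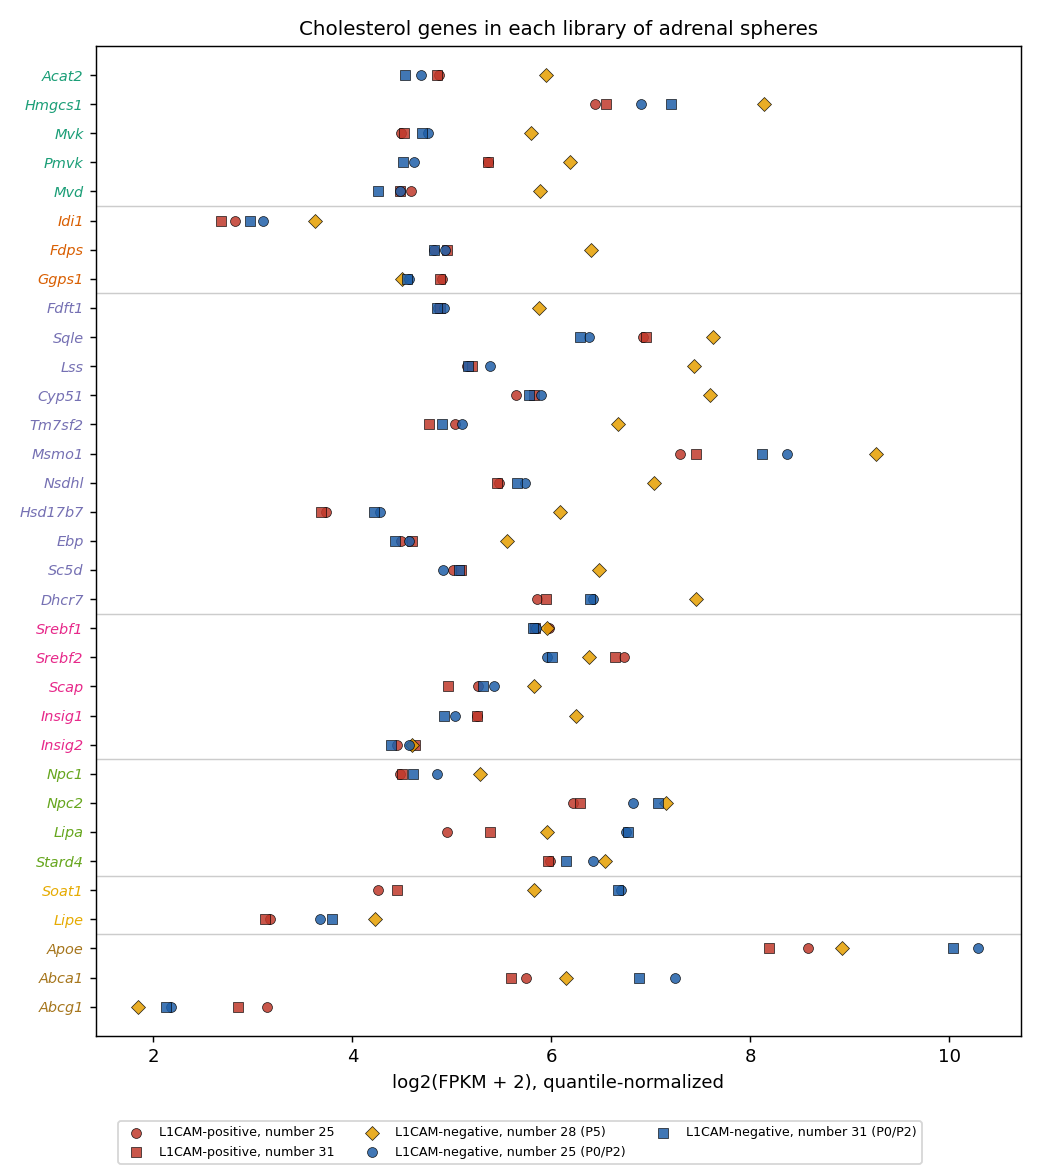
Level of each of the 33 cholesterol genes in each of the 5 libraries, as quantile-normalized log2(FPKM + 2) on the horizontal axis, with genes in rows and name colours marking their role. Red symbols are the 2 L1CAM-positive libraries, the gold diamond is the P5 library and blue symbols are the 2 P0/P2 L1CAM-negative libraries. The diamond is the rightmost symbol for 18 of the 19 synthesis enzymes (*Acat2* to *Dhcr7*), and lies between the red and the blue symbols for *Lipa*, *Soat1*, *Apoe* and *Abca1*.

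The mevalonate pathway begins with *Acat2*, the cytosolic thiolase that joins acetyl-CoA units. Its level was 4.87 and 4.85 in the L1CAM-positive libraries, 5.95 in the P5 library and 4.69 and 4.53 in the P0/P2 L1CAM-negative libraries. *Hmgcs1*, the HMG-CoA synthase of the cytosol, was at 6.44 and 6.55 in the L1CAM-positive libraries, 8.14 in the P5 library and 6.90 and 7.20 in the P0/P2 L1CAM-negative libraries. For both genes the P5 library stood apart on the high side, and for *Hmgcs1* the L1CAM-positive libraries were the lowest. The kinases and the decarboxylase that follow are encoded by *Mvk*, *Pmvk* and *Mvd*. *Pmvk* had the largest P5 difference of the 5, with 5.36 and 5.36 in the L1CAM-positive libraries, 6.19 in the P5 library and 4.62 and 4.51 in the P0/P2 L1CAM-negative libraries. Here the order differed from *Hmgcs1*, since the L1CAM-positive libraries were second to P5. *Mvk* was 1.06 and *Mvd* 1.52 higher on the log2 scale in the P5 library than in the mean of the P0/P2 L1CAM-negative libraries. The less abundant transcripts of *Hmgcs1*, *Pmvk* and *Mvd* were higher in P5 by less than 2-fold, by 0.76, 0.81 and 0.95.

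The isoprenoid branch was split. *Fdps*, which makes farnesyl diphosphate for sterols and for protein prenylation, was at 4.82 and 4.95 in the L1CAM-positive libraries, 6.40 in the P5 library and 4.93 and 4.82 in the P0/P2 L1CAM-negative libraries. Only the P5 library differed. The other *Fdps* transcript in the table was also highest in P5, at 5.96, but was lower in the L1CAM-positive libraries, at 3.50 and 3.18, than in the P0/P2 L1CAM-negative libraries, at 4.43 and 4.41. *Idi1*, the isomerase of isopentenyl diphosphate, was 0.60 higher in P5 on the log2 scale. *Ggps1*, which makes geranylgeranyl diphosphate for protein prenylation and stands off the route to cholesterol, was not higher in the P5 library. Its level was 4.90 and 4.88 in the L1CAM-positive libraries, 4.50 in the P5 library and 4.57 and 4.55 in the P0/P2 L1CAM-negative libraries.

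The steps from squalene onward held the largest P5 differences. *Lss*, the lanosterol synthase that closes the sterol rings, was at 5.15 and 5.20 in the L1CAM-positive libraries, 7.44 in the P5 library and 5.39 and 5.16 in the P0/P2 L1CAM-negative libraries. Its difference of 2.16 on the log2 scale ranked 132 of 23903 genes, the highest rank of any member. *Hsd17b7*, the sterol ketoreductase, was at 3.73 and 3.68 in the L1CAM-positive libraries, 6.09 in the P5 library and 4.28 and 4.22 in the P0/P2 L1CAM-negative libraries. *Cyp51*, the lanosterol demethylase, was at 5.64 and 5.82 in the L1CAM-positive libraries, 7.59 in the P5 library and 5.90 and 5.78 in the P0/P2 L1CAM-negative libraries. In all 3 genes the gap between the P5 library and the next one was wider than the whole range of the 4 other libraries.

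*Msmo1*, the methylsterol oxidase, was the most abundant synthesis enzyme, at 7.29 and 7.45 in the L1CAM-positive libraries, 9.26 in the P5 library and 8.36 and 8.12 in the P0/P2 L1CAM-negative libraries. Unlike *Lss* and *Cyp51*, it separated the 3 kinds of library, with the L1CAM-positive ones lowest. *Sqle*, the squalene epoxidase, had another order, at 6.92 and 6.95 in the L1CAM-positive libraries, 7.62 in the P5 library and 6.38 and 6.29 in the P0/P2 L1CAM-negative libraries. The P5 differences of the other members of this stretch ran from 0.99 for *Fdft1*, the squalene synthase, to 1.67 for *Tm7sf2*, a sterol reductase. Between them were *Dhcr7*, the 7-dehydrocholesterol reductase of the last step, at 1.05, *Ebp*, the sterol isomerase, at 1.06, *Nsdhl*, a sterol dehydrogenase, at 1.33, and *Sc5d*, a sterol desaturase, at 1.49.

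Of the regulators, *Insig1* alone was over 2-fold higher in the P5 library. The gene is itself a target of SREBP2, and its product holds SCAP in the endoplasmic reticulum. Its level was 5.26 and 5.25 in the L1CAM-positive libraries, 6.25 in the P5 library and 5.03 and 4.92 in the P0/P2 L1CAM-negative libraries, so that it followed the order of *Sqle* and *Pmvk*. The P5 difference was 0.13 for *Srebf1*, 0.39 for *Srebf2*, which encodes SREBP2, 0.46 for the escort protein gene *Scap* and 0.12 for *Insig2*. For *Insig2*, 2 of the 3 less abundant transcripts of the table were over 2-fold above the P0/P2 mean in P5, by 1.17 and 1.05 on the log2 scale. Neither was 2-fold above both P0/P2 L1CAM-negative libraries. The first was at 4.48 in P5, against 3.57 in number 25 and 3.06 in number 31. The second was a low transcript at 3.21, against 1.70 and 2.64 in the same order. The less abundant *Scap* transcript went the other way, with a P5 difference of -0.24.

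None of the genes of release, storage and export was at least 2-fold higher in the P5 library. *Soat1*, which esterifies cholesterol, was at 4.26 and 4.45 in the L1CAM-positive libraries, 5.82 in the P5 library and 6.70 and 6.67 in the P0/P2 L1CAM-negative libraries. *Lipa*, the lysosomal acid lipase that frees cholesterol from lipoprotein esters, was at 4.95 and 5.39 in the L1CAM-positive libraries, 5.95 in the P5 library and 6.75 and 6.77 in the P0/P2 L1CAM-negative libraries. P5 lay below both P0/P2 L1CAM-negative libraries for these genes, as it did for all 3 efflux genes and *Ggps1*, 6 members in all, against 32.3% of all genes and 46.5% of those at 1 FPKM or more.

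*Apoe*, the apolipoprotein that accepts cellular cholesterol, was the most abundant member, at 8.58 and 8.19 in the L1CAM-positive libraries, 8.92 in the P5 library and 10.29 and 10.03 in the P0/P2 L1CAM-negative libraries. *Abca1*, the exporter that loads lipid onto apolipoproteins, was at 5.75 and 5.59 in the L1CAM-positive libraries, 6.15 in the P5 library and 7.25 and 6.88 in the P0/P2 L1CAM-negative libraries. For both, P5 lay nearer to the L1CAM-positive libraries than to the other L1CAM-negative ones. The remaining members of these groups were modestly higher in P5, which was the highest of the 5 libraries for each of them. The difference was 0.55 for the lysosomal exporter gene *Npc1* and 0.50 for *Lipe*, the hormone-sensitive lipase that mobilizes stored esters. It was 0.25 for the sterol carrier gene *Stard4* and 0.21 for *Npc2*, whose product hands cholesterol to NPC1. The other *Lipe* transcript was not higher in P5, at 3.08 against 3.20 and 3.14 in the P0/P2 L1CAM-negative libraries.

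**Figure D2:**
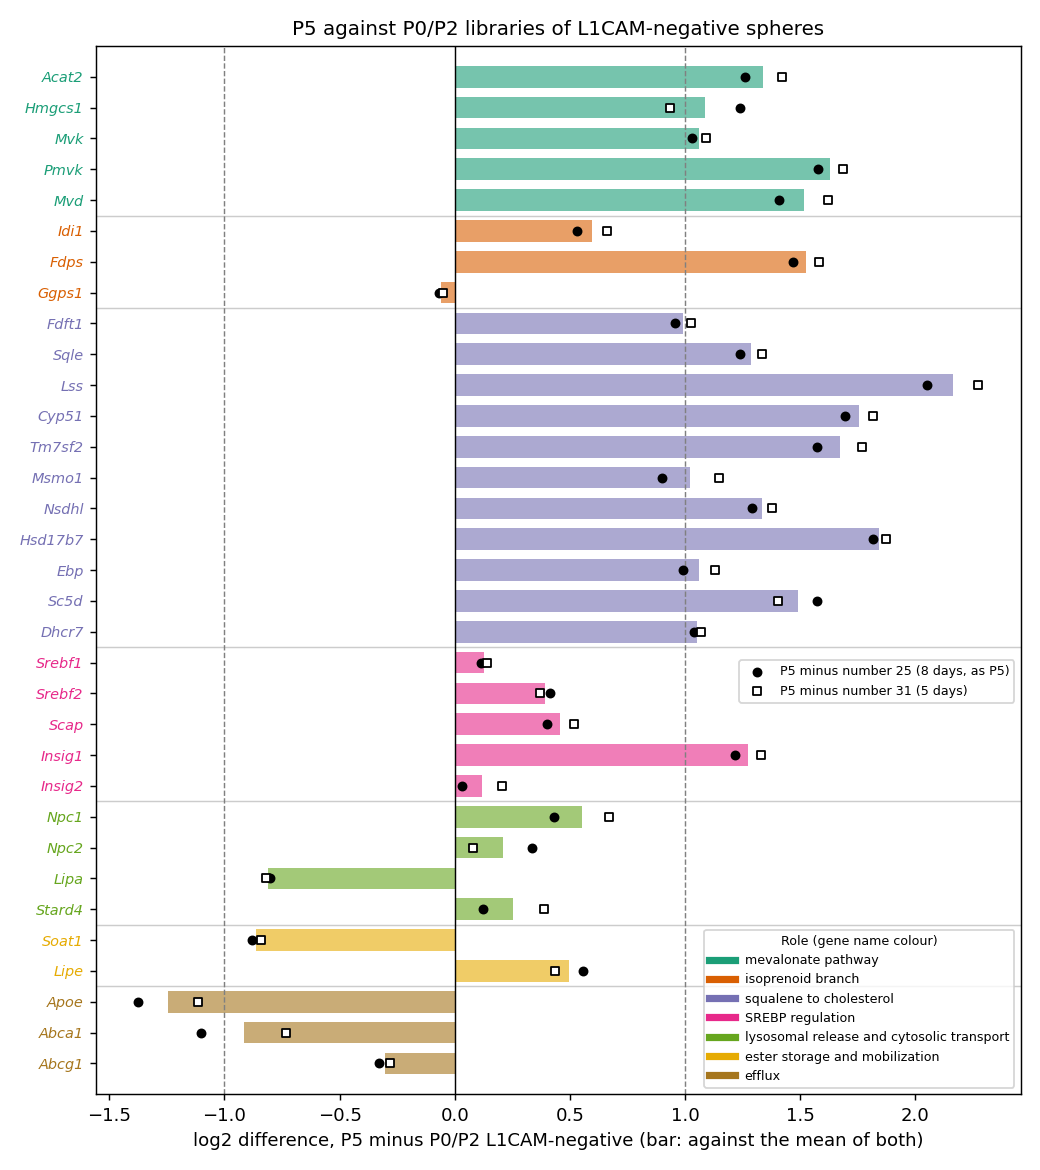
Difference on the log2 scale between the P5 library and the P0/P2 L1CAM-negative libraries for each of the 33 genes. Bars are the difference from the mean of both P0/P2 libraries, filled circles the difference from number 25, which shares the 8 days of culture, open squares the difference from number 31 at 5 days, and dashed lines mark 2-fold. The bars of 17 genes reach 1.0 or more, up to 2.16 for *Lss*, and the bar of *Apoe* reaches -1.24.

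The P5 pattern did not rest on 1 of the P0/P2 libraries. Against number 25 alone, which was cultured for 8 days as the P5 library was, 15 members were at least 2-fold higher, and 17 were against number 31 alone. The share of all genes was counted only against the mean of both libraries, as given above, and not against either one alone. Marker genes also differed between these libraries. All 11 chromaffin markers, all 8 macrophage markers and 7 of 8 fibroblast and capsule markers were lower in P5 than in both P0/P2 L1CAM-negative libraries. So were 32.3% of all genes and 46.5% of those at 1 FPKM or more, and 29.1% and 35.8% were above both. The 8 macrophage markers summed to 125.96 FPKM in the P5 library, against 191 and 443 FPKM in the P0/P2 L1CAM-negative libraries, and the fibroblast and capsule markers to 5279 FPKM, against 7918 and 6752 FPKM. Of the 12 adrenocortical markers, 5 were above and 5 below both P0/P2 libraries, near these shares, with a median difference of -0.08 on the log2 scale. *Akr1b7*, an aldo-keto reductase of the cortex, and *Mrap*, the accessory protein of the ACTH receptor, were at least 2-fold higher in P5, by 3.67 and 1.02. The 6 endothelial markers summed to 368 FPKM in P5, against 193 and 193 FPKM, of which *Emcn* made up 313 FPKM in P5, and 3 of the 6 were above and 2 below both P0/P2 libraries. Of the 7 glial markers, 6 were above both P0/P2 libraries, with a median difference of 0.44. The part of these cell types in the P5 pattern was not tested.

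**Figure D3:**
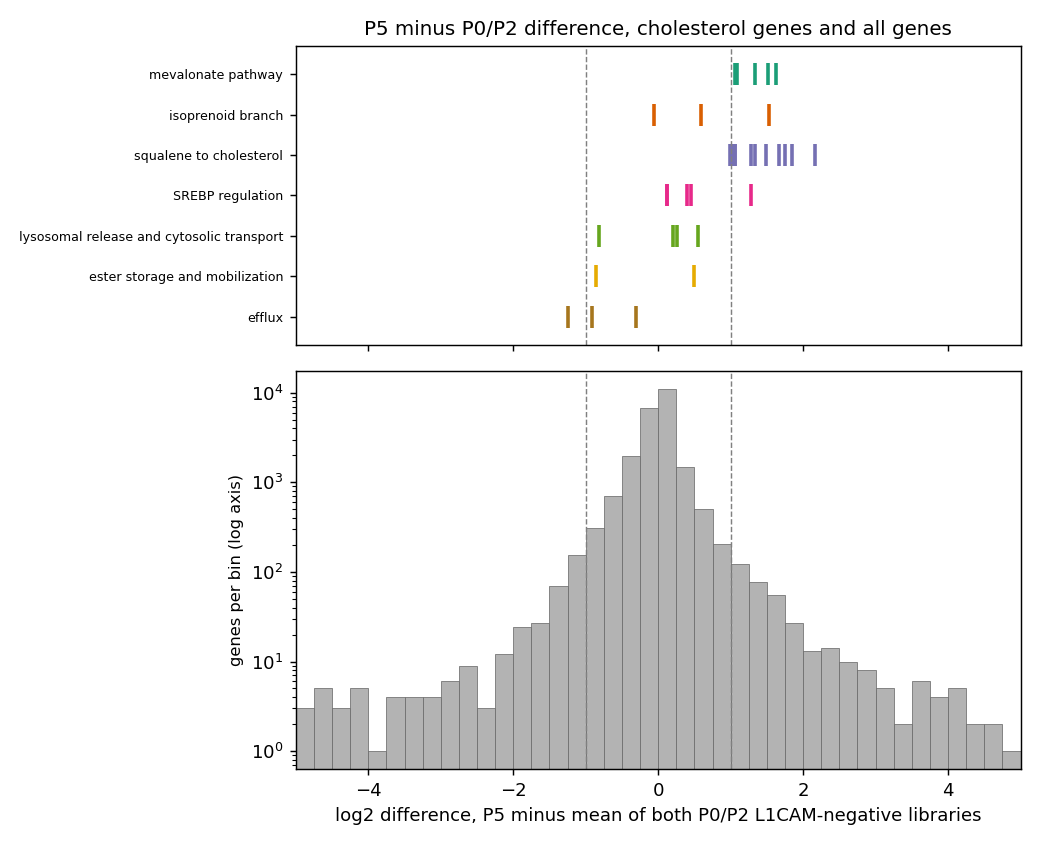
Differences on the log2 scale between the P5 library and the mean of the P0/P2 L1CAM-negative libraries, for the cholesterol genes by role (upper panel, 1 tick per gene) and for all 23903 genes (lower panel, genes per bin on a log axis), with dashed lines at 2-fold. Ticks of the mevalonate pathway and of the steps from squalene to cholesterol sit at 0.99 to 2.16, where few genes lie, and 132 genes with differences beyond 5 in either direction are outside the plot.

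The second comparison was between the L1CAM fractions, which sets cultures rich in chromaffin cells against the remaining adrenal cells. Few members passed the test when all 5 libraries were used. With 2 L1CAM-positive and 3 L1CAM-negative libraries, *Ggps1* and *Abcg1* were higher in L1CAM-positive spheres, 2 of 33, where 11.6% of all genes were called (limma, Benjamini-Hochberg adjusted p under 0.05 over 23903 genes). *Soat1* and *Npc2* were lower in L1CAM-positive spheres, 2 of 33, where 10.0% of all genes were called in that direction. The other 29 members were not called. The median log2 fold change of L1CAM-positive over L1CAM-negative was -0.48 for the 33 members and 0.00 for all genes. Both L1CAM-positive libraries lay below all 3 L1CAM-negative libraries for 16 members, against 26.0% of all genes and 37.2% of those at 1 FPKM or more. They lay above all 3 for 3 members, *Ggps1*, *Srebf2* and *Abcg1*, against 23.0% and 33.3%. Once genes at the floor in every library were left out, 3 members were higher (with *Srebf2*) and 4 lower (with *Lipa* and *Lipe*), where 15.9% and 15.1% of 19549 genes were called.

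Of the called genes, *Soat1* (chromosome 1, 156428108 to 156474328, build mm10) had the largest change, a log2 fold change of -2.04 ± 0.34 (SE) with a limma adjusted p of 0.031. *Npc2* (chromosome 12, 84754559 to 84773112) was at 6.22 and 6.29 in the L1CAM-positive libraries, 7.15 in the P5 library and 6.82 and 7.07 in the P0/P2 L1CAM-negative libraries, a log2 fold change of -0.76 ± 0.12 (limma adjusted p = 0.028). The fractions did not overlap for either gene. *Abcg1* (chromosome 17, 31057694 to 31117984), a sterol exporter, was a low transcript at 3.14 and 2.85 in the L1CAM-positive libraries, 1.85 in the P5 library and 2.18 and 2.13 in the P0/P2 L1CAM-negative libraries. Its log2 fold change was 0.94 ± 0.16 (limma adjusted p = 0.033), opposite in sign to that of *Abca1*. For *Ggps1* (chromosome 13, 14049790 to 14063566) the change was small and even, 0.35 ± 0.03 (limma adjusted p = 0.0098).

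When either L1CAM-positive library, number 25 or number 31, was left out, none of these 4 genes passed (limma adjusted p between 0.064 and 0.162), where the lone L1CAM-positive library is assumed to vary like the others. Without the P5 library, *Ggps1* (adjusted p = 0.0155) and *Soat1* (0.011) passed in limma and *Abcg1* (0.0512) and *Npc2* (0.0535) did not. Without L1CAM-negative number 25, *Abcg1* (0.0917) and *Soat1* (0.0964) did not pass in limma, and without L1CAM-negative number 31 *Abcg1* (0.099), *Soat1* (0.0965) and *Npc2* (0.0981) did not.

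Since the P5 library widened the spread among L1CAM-negative libraries, the fractions were also compared at P0/P2 alone, with 2 libraries each. There 4 members were higher in L1CAM-positive spheres, where 11.7% of all genes were called, and 9 were lower, where 12.3% were. The median log2 fold change of the members was -0.11. For 14 of the 19 synthesis enzymes the fractions differed by less than 0.5 on the log2 scale, and for *Fdps*, *Fdft1*, *Ebp* and *Sc5d* by at most 0.06 (values that did not pass the test). The share of all genes within 0.5 was not counted. The less abundant *Fdps* transcript was lower in L1CAM-positive spheres, with a difference of -1.08.

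Within the synthesis pathway, the enzymes called at P0/P2 went both ways. *Pmvk* was higher in L1CAM-positive spheres by 0.80 ± 0.05 (SE; limma adjusted p = 0.0151), *Sqle* by 0.60 ± 0.05 (limma adjusted p = 0.0186) and *Ggps1* by 0.33 ± 0.02. *Msmo1* was lower, with a log2 fold change of -0.87 ± 0.13 (limma adjusted p = 0.0428), as were *Hsd17b7* at -0.54 ± 0.04, *Dhcr7* at -0.50 ± 0.04 and *Mvk* at -0.23 ± 0.04. *Hmgcs1*, at -0.56 ± 0.14, did not pass (limma adjusted p = 0.105). *Srebf2* was higher in L1CAM-positive spheres by 0.70 ± 0.05 (limma adjusted p = 0.0164). Its level was 6.73 and 6.64 in the L1CAM-positive libraries, 6.37 in the P5 library and 5.96 and 6.004 in the P0/P2 L1CAM-negative libraries, so that the fractions did not overlap with the P5 library included either.

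The largest differences between the fractions at P0/P2 were of genes in storage, release and efflux, though not of every gene in these groups. *Soat1* was lower in L1CAM-positive spheres by the widest margin of any member, -2.33 ± 0.08, followed by *Apoe* at -1.78 ± 0.21 (limma adjusted p = 0.0306), *Lipa* at -1.59 ± 0.19 (limma adjusted p = 0.0315) and *Abca1* at -1.39 ± 0.17 (limma adjusted p = 0.034). *Lipe* was lower by a smaller amount, -0.59 ± 0.07 (limma adjusted p = 0.0305). Of the release and transport genes other than *Lipa*, none was called there. Their values were -0.69 for *Npc2*, -0.31 for *Stard4* and -0.25 for *Npc1* (limma adjusted p = 0.0535, 0.201 and 0.245). The summed level of the 3 efflux genes was 438 and 341 FPKM in the L1CAM-positive libraries, 552 FPKM in the P5 library and 1404 and 1164 FPKM in the P0/P2 L1CAM-negative libraries. *Apoe* made up most of it, and *Abcg1* had the opposite sign, 0.84 ± 0.14 (limma adjusted p = 0.0512). With the P5 library included, *Apoe*, *Lipa*, *Abca1* and *Lipe* kept their negative log2 fold changes, of -1.37, -1.32, -1.09 and -0.75, and missed the threshold (limma adjusted p = 0.165, 0.081, 0.146 and 0.0832).

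**Figure D4:**
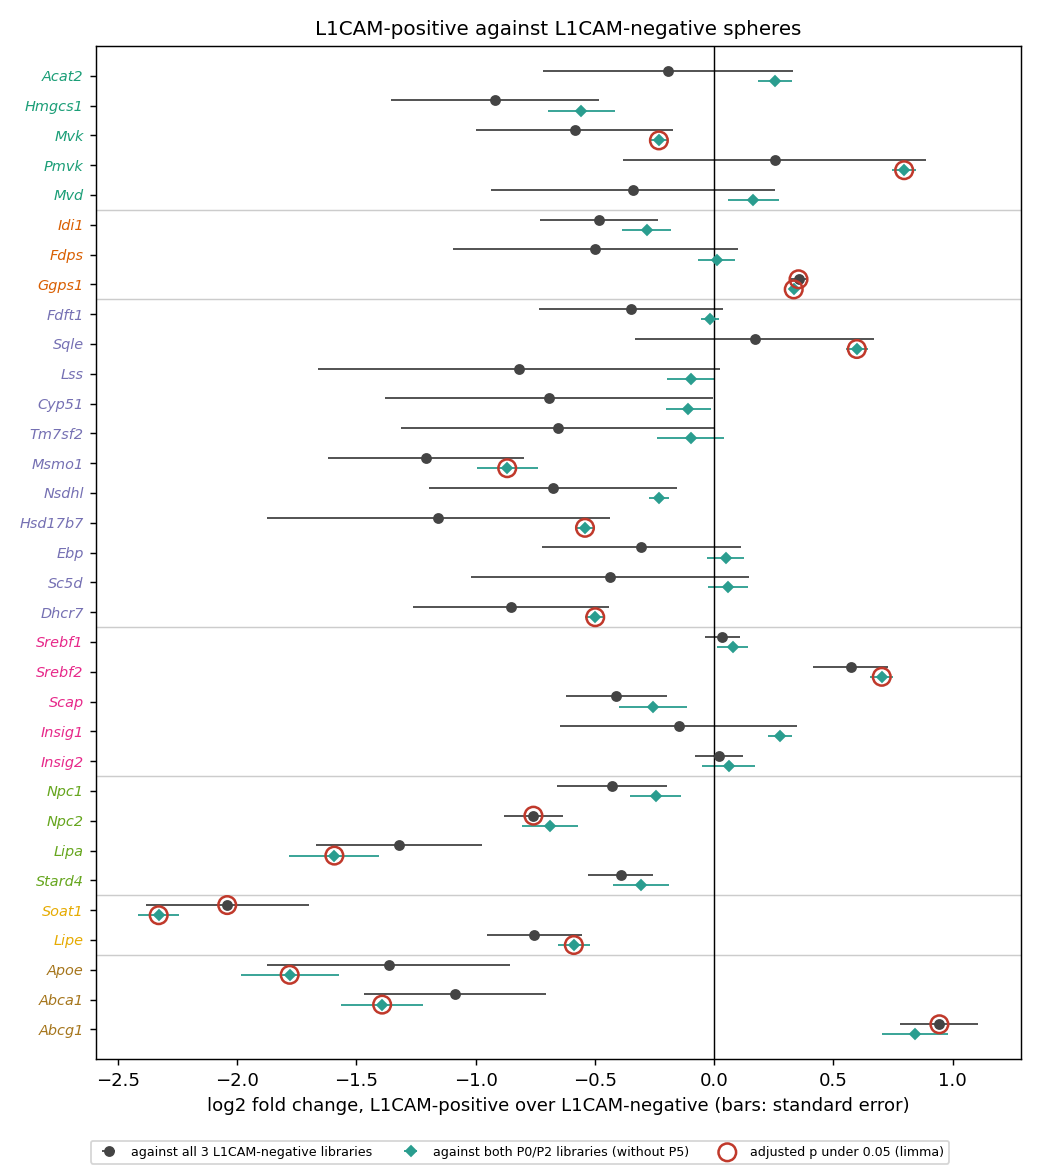
Log2 fold change of L1CAM-positive over L1CAM-negative spheres for the 33 genes, with bars for the standard error. Grey circles use all 3 L1CAM-negative libraries, green diamonds the 2 P0/P2 libraries, and red rings mark an adjusted p under 0.05 in limma. The grey bars of the synthesis enzymes are wide, and most of their diamonds lie within 0.5 of 0, whereas *Soat1*, *Apoe*, *Lipa* and *Abca1* lie at -2.33 to -1.39 without the P5 library.

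Markers of several cell types moved with the fractions, and their part in these differences was not tested. Of the 12 adrenocortical markers, 11 were lower in L1CAM-positive spheres in limma, as were 5 of 8 fibroblast and capsule markers and 3 of 6 endothelial markers. Over all genes 10.0% were lower, and the 1 of 8 macrophage markers called lower is near that share. Without the P5 library these counts were 9, 8, 3 and 2, where 12.3% of all genes were lower. The macrophage markers summed to 24.3 and 34.0 FPKM in the L1CAM-positive libraries, 125.96 FPKM in the P5 library and 191 and 443 FPKM in the P0/P2 L1CAM-negative libraries. The fibroblast and capsule markers summed to 1340 and 1475 FPKM in the L1CAM-positive libraries, 5279 FPKM in the P5 library and 7918 and 6752 FPKM in the P0/P2 L1CAM-negative libraries. The endothelial markers summed to 35.9 and 36.7 FPKM in the L1CAM-positive libraries, 368 FPKM in the P5 library and 193 and 193 FPKM in the P0/P2 L1CAM-negative libraries. In the other direction, 8 of 11 chromaffin markers and 4 of 7 glial markers were higher in L1CAM-positive spheres, where 11.6% of all genes were. Without the P5 library 10 chromaffin markers and 0 glial markers passed in limma, where 11.7% of all genes did. At an unadjusted p under 0.05 in that fit, 5 of 7 glial markers passed, where 9001 of all 23903 genes did in either direction. The glial markers summed to 58.7 and 126.3 FPKM in the L1CAM-positive libraries, 11.3 FPKM in the P5 library and 6.29 and 8.73 FPKM in the P0/P2 L1CAM-negative libraries.

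Other genes of cholesterol and lipid handling were taken from 7 lists with 70 genes, 69 of them measured. In the comparison of all 5 libraries, 5 were higher in L1CAM-positive spheres, where 11.6% of all genes were, and 20 lower, where 10.0% were. In the P5 library 3 of 69 were at least 2-fold higher, where 1.77% of all genes and 2.61% of those at 1 FPKM or more were. All 3 were among the 12 SREBP-1 targets of fatty acid synthesis. *Acss2*, which makes acetyl-CoA from acetate, was at 4.25 and 4.40 in the L1CAM-positive libraries, 6.29 in the P5 library and 4.24 and 4.16 in the P0/P2 L1CAM-negative libraries. *Scd1*, a fatty acid desaturase, was 1.88 and *Elovl5*, a fatty acid elongase, 1.01 higher on the log2 scale. P5 was above both P0/P2 L1CAM-negative libraries for 11 of these 12 genes, against 29.1% of all genes and 35.8% of those at 1 FPKM or more, with a median difference of 0.58, less than the 1.33 of the cholesterol enzymes. Between the fractions 1 of the 12 was lower in L1CAM-positive spheres, where 10.0% of all genes were. It was *Gpam*, the acyltransferase that starts glycerolipid synthesis (log2 fold change -1.65, limma adjusted p = 0.0066).

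The counts of the other 6 lists are read against the same shares of all genes, 10.0% lower and 11.6% higher in L1CAM-positive spheres, and lists with 1 gene called in a direction are near them. Of 7 lipoprotein receptors and adaptors, 4 were lower and 1 higher. The endocytic adaptor gene *Dab2* had the largest fall, at 2.99 and 2.79 in the L1CAM-positive libraries, 5.10 in the P5 library and 5.59 and 5.27 in the P0/P2 L1CAM-negative libraries (log2 fold change -2.43, limma adjusted p = 0.00719). The apolipoprotein E receptor gene *Lrp8*, which is known in neurons, was higher, at 3.70 and 3.80 in the L1CAM-positive libraries, 2.51 in the P5 library and 2.09 and 2.10 in the P0/P2 L1CAM-negative libraries (log2 fold change 1.52). Among 13 lipid droplet genes 5 were lower, led by the droplet coat gene *Plin3* (-1.56), and 1 was higher, *Cidea* (0.90). Of 7 liver X receptors and targets, 2 were lower (4 without the P5 library), led by the receptor gene *Nr1h3* (-1.41), and 1 was higher, the transporter gene *Abca2* (1.44).

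The sterol transfer list had 4 of 11 genes lower in L1CAM-positive spheres, with *Osbpl5* changed the most (-1.02). Of 8 genes of SREBP processing and sterol-dependent degradation, the ubiquitin ligase gene *Rnf145* was higher in L1CAM-positive spheres (0.69). Of 11 other measured sterol and isoprenoid enzymes, 3 were lower, led by *Por* (-1.30), the reductase that supplies electrons to cytochromes P450, and 1 was higher, *Dhdds* (0.30), an enzyme of dolichol synthesis. In none of these 6 lists was a gene at least 2-fold higher in the P5 library.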

How the data were processed

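RNA from 5 sphere cultures was sequenced as paired ends of 50 bases from a strand-specific mRNA library. The authors used STAR 2.6.1a for alignment to mm10 and Cufflinks for FPKM per transcript, which limma then quantile-normalized. The deposited values are log2 values with a floor of 1, read here as log2(FPKM + 2). The offset of 2 was inferred from that floor, and every FPKM value is the back-transformed one. The table held 32737 transcripts, of which 0.617% had no gene symbol and were left out. Normalized values give neither counts nor depth, so no counting interval is given.

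Each symbol was represented by its transcript of highest mean level, with no filter on low values (4354 of 23903 genes were at the floor in every library). The fractions were compared with limma 3.58.1 in R 4.3.3 (lmFit, eBayes with trend, two-sided, Benjamini-Hochberg adjusted over all genes, threshold 0.05). The same fit was also run on simulated data with independent libraries, which cannot show how it behaves if the real libraries are not independent. Fold changes are on the log2(FPKM + 2) scale, which understates changes of low genes. Sums and figures used pandas 2.3.3, numpy 2.4.6 and matplotlib 3.10.9 under Python 3.11.15. Alternatives were other offsets, filters, treatments of transcripts, scalings, variance models, a replicate block, a culture term and leaving out each library. Motifs were searched by letters in RefSeq promoters (GRCm38.p6), which were found for 27 of 33 members.

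All 33 members were named. Of each other list, the called gene with the largest change in each direction was named, apart from any not reported here. The P5 genes of the fatty acid list, the 2 cortical markers and the printed promoters were picked with their values in view. The members and lists were chosen with earlier results of these data known.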

Additional observations from a re-analysis of the deposited data

Results flagged for a closer look

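For 6 of the 33 members, L1CAM-positive minus L1CAM-negative had opposite signs in number 25 (8 days) and number 31 (5 days), with 1 library per fraction and number. The share of all genes with opposite signs was not counted, so the 6 cannot be read as a trait of the members. The difference between both numbers, 25 minus 31 on the log2 scale, was not tested. It was -0.25 for *Fdps* (-0.11 in number 25, 0.14 in number 31), -0.10 for *Fdft1* (-0.07 and 0.03), -0.28 for *Lss* (-0.24 and 0.04), -0.30 for *Cyp51* (-0.26 and 0.04), -0.24 for *Ebp* (-0.07 and 0.17) and -0.36 for *Insig2* (-0.12 and 0.24). No single value exceeded 0.26, and none of these 6 genes was called between the fractions.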

How the results depend on the processing

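Members higher in L1CAM-positive spheres numbered 2, and 1 after centring on housekeeping genes, 0 with robust variance, 0 with the replicate block and 1 with a culture period term (limma). Members lower there numbered 2, and 4 without genes at the floor, 4 with at least 1 FPKM in 2 libraries, 5 with the median of the transcripts, 4 after housekeeping centring, and 0 with robust variance, with the block and with the culture term. Leaving out each library gave 0 to 4 higher and 0 to 9 lower, most without the P5 library. Over all genes, 2775 were higher and 2393 lower, against 797 and 352 with robust variance, 1727 and 1273 with the culture term, 2771 and 1837 after housekeeping centring, 1301 to 2805 and 521 to 2942 on leaving out a library. The numbers 25 and 31 give only 2 pairs and the labels do not say that they pair libraries (r of the 25 minus 31 differences across 19549 genes 0.0685, genes being no replicates). With the replicate block 0 and 0 genes passed, though 8417 had an unadjusted p under 0.05.

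Changes of sign fell on members not called with all 5 libraries, including *Pmvk* and *Sqle*, which were called at P0/P2. With the replicate block, which gives the same estimates as leaving out the P5 library, fold changes were 0.25 for *Acat2*, 0.17 for *Mvd*, 0.011 for *Fdps*, 0.049 for *Ebp*, 0.059 for *Sc5d* and 0.28 for *Insig1*. *Insig2* was -0.028 with transcripts summed and -0.20 with their median. On leaving out each library, the fold change ran from -0.46 to 0.25 for *Acat2*, -0.045 to 0.80 for *Pmvk*, -0.65 to 0.17 for *Mvd*, -0.78 to 0.011 for *Fdps*, -0.068 to 0.60 for *Sqle*, -0.52 to 0.049 for *Ebp*, -0.73 to 0.059 for *Sc5d*, -0.039 to 0.11 for *Srebf1*, -0.39 to 0.28 for *Insig1* and -0.071 to 0.11 for *Insig2*. The cause was not tested. The count of 17 members 2-fold higher in P5, and its alternatives, were added after seeing the data, and stayed between 15 and 18. The share of all genes was not counted for these alternatives. Depth is unknown, and 1 library per age allows no error for P5.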
